A study of Homo sapiens with 17 samples.

Results

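The comparison is between 786-O cells that carried guide RNAs against USP37 and 786-O cells that carried the scrambled guide of the same experiment. It uses 8 of the 17 RNA-seq libraries of the study: 3 with USP37 guide sg3, 3 with USP37 guide sg9 and 2 with the scrambled guide (sgScr), which are numbered 2 and 3. 786-O is a human clear cell renal carcinoma line without functional VHL, so every group, the control included, has this background. Per the labels' protocols, each guide was delivered on a pLenti CRISPR-V2 puromycin vector packaged in 293T cells, and the infected cells were then kept under antibiotic selection. Neither a time after infection nor clonal isolation is stated there, so each group is taken as a selected population of 1 cell line. A separate scrambled control, of the study's HIF2a experiment, has 3 libraries and is used only to show levels side by side. The effect given is the mean of the sg3 and sg9 group means minus the control mean, and the genes described are mainly those that passed in this mean and also in sg3 and sg9 taken singly, with 1 direction throughout. Calls use a threshold of 0.05 on the adjusted p. The labels do not say that replicates were separate cultures, and p-values therefore reflect only how these libraries vary, which may be technical variation.

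USP37 is a deubiquitinase of the ubiquitin-specific protease family: it removes ubiquitin chains from proteins and so can spare them from the proteasome. HIF2A, the protein of EPAS1, is an oxygen-regulated transcription factor that pairs with ARNT and binds hypoxia response elements. The EGLN enzymes hydroxylate it and VHL then marks it for destruction, so that in VHL-deficient renal carcinoma it stays on and drives growth factor, lipid and matrix genes. The series title names USP37 as a deubiquitinase of HIF2a in kidney cancer, and the comparison shows which transcripts differed in cells given USP37 guides. RNA values do not measure ubiquitin or protein.

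The unit throughout is the deposited variance-stabilised value, corrected for batch by the authors, on a log2-like scale with a floor near 5.14. A difference of 1 is a 2.0-fold difference at high levels, and differences of weakly expressed genes are understated. The depth per library is unknown. Of 27315 genes in the table, 12484 passed the filter on low values and were tested. Libraries of 1 group differed by a median of 0.126 to 0.159 per gene within the 3 groups. Along the first principal component, which held 53.2% of the variance of the 8 libraries, the control libraries lay at -36.1 and -34.9, the sg3 libraries at -1.8, 4.2 and 9.1, and the sg9 libraries at 12.7, 22.2 and 24.8. The control thus stood apart from both guides, and the guides stood apart from each other. In each guide group the library numbered 1 lay nearest to the control. A replicate term had been removed from the deposited values, although the control has no library 1. How far this moved the guide libraries numbered 1 toward the control was not tested. Among the genes called with both guides, library 1 was the nearest to the control mean in 56.7% of genes for sg3 and 60.4% for sg9, against 43% and 47.6% of all tested genes.

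USP37 itself was lower with both guides. Its value was 9.33 and 9.15 in the control, 8.43, 8.35 and 8.23 with sg3, and 8.04, 8.07 and 8.30 with sg9. All 6 guide libraries lay below both control libraries. The mean of the guides fell by 1.00 (SE 0.14, limma adjusted p = 1.22e-05, Benjamini-Hochberg over all tested genes), by 0.90 for sg3 and by 1.10 for sg9. The guides themselves did not pass the test against each other for this transcript (difference -0.20, limma adjusted p = 0.304). A CRISPR guide cuts the gene and need not lower its RNA, and the position of the cut is not given in the sources used here. In bulk RNA a smaller share of cells with the transcript and less of it per cell cannot be told apart. Of the neighbours of USP37 in the RefSeq order, CNOT9, a subunit of the CCR4-NOT deadenylase complex, rose by 0.38 (limma adjusted p = 0.00281), a call that was lost when control library 2 was left out. CTDSP1 (-0.13) and PLCD4 (0.16) did not pass. SLC11A1 and VIL1 were below the filter, and MIR26B held a single value.

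In the mean of both guides, 5525 of 12484 genes were called (44.3%), of which 2795 were higher (22.4%) and 2730 lower (21.9%); the unadjusted p was under 0.05 for 51.4%. Separately, sg3 gave 4390 calls (35.2%) and sg9 gave 5968 (47.8%), of which 23.2% of tested genes were lower and 24.6% higher. Calls that held in the mean and in both guides numbered 1428 higher (11.4%) and 1667 lower (13.4%). In 3045 of these 3095 genes the values of the 6 guide libraries did not overlap those of the 2 control libraries, as was so for 41.2% of all tested genes. Their median difference was 0.59 among the rises and -0.63 among the falls, against 0.01 over all tested genes. These genes were picked by their differences in the same libraries, so the separation and the medians follow in part from the choice. Large differences were more often falls: 231 genes fell and 125 rose by at least 1 log2 unit, 60 fell and 16 rose by at least 1.5, and 16 fell and 3 rose by at least 2. The share of falls was alike over the range of expression, at 12.9% in the lowest of 4 bins of genes by level and 13.8% in the highest. Rises made up 7.47% in the lowest bin and 14.5% in the highest. Of the 3095 genes, 641 also passed the test of guide against guide, which 30.8% of all tested genes passed. The scrambled control of the HIF2a experiment lay below both guide means for 1083 of the 1428 rises (75.8%) and above both for 1338 of the 1667 falls (80.3%), against 40.3% and 40.5% of all tested genes. Among the genes named below that were called with both guides, it lay beyond both guide means, away from the USP37 control, for the rises of IFI6, INHBA, INHBB, RSAD2, TAP2, PLEC, PLXNA2, BOP1 and POLR1A and for the falls of PLIN2, ANGPTL4, PFKFB3, EGLN1, SPP1, CTSD, PPARGC1A, SEMA4D, SEMA6D and EPCAM. The direction of these genes depends on which scrambled control is set beside the guides.

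**Figure D1:**
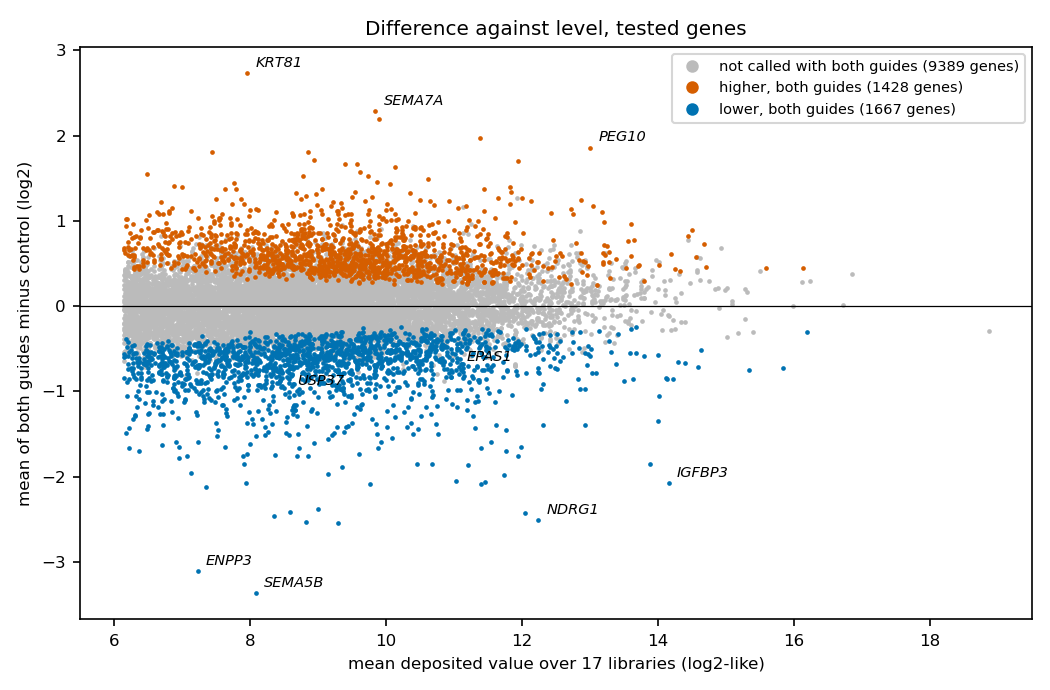
Mean of both guides minus control (log2, vertical axis) against the mean deposited value over 17 libraries (log2-like, horizontal axis) for the 12484 tested genes. Orange points are the 1428 genes called higher and blue points the 1667 called lower in the mean and in each guide. SEMA5B and ENPP3 lie lowest and KRT81 lies highest.

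The 15 largest falls and 15 largest rises among the genes called with both guides all had 6 guide libraries outside the range of the control, with standard errors of 0.11 to 0.23 and limma adjusted p between 3.98e-12 and 4.38e-08. They were picked by their size in these same libraries, so this separation is not separate evidence. The HIF2a experiment's scrambled control lay above both guide means for 15 of the 15 falls, and below both for 14 of the 15 rises. The exception was IFI6. For some genes the margin was small beside the spread of the libraries. FXYD6-FXYD2 was at 7.16 in that control and at a mean of 7.13 with sg9, and FXYD2 was at 8.92 and 8.51. FJX1 was at 9.59 in that control and at a mean of 9.91 with sg3. SEMA5B, a transmembrane semaphorin of axon guidance, fell furthest. It stood at 10.13 and 10.02 in the control, at 6.88, 5.72 and 6.65 with sg3 and at 7.45, 7.16 and 6.40 with sg9, and fell by 3.37. The guide values came close to the floor, so this fall is understated. ENPP3, an ectonucleotidase of renal tubule and clear cell carcinoma, was at 9.40 and 9.42 in the control, 7.01, 6.38 and 6.12 with sg3, and 6.20, 6.15 and 5.96 with sg9. It fell by 3.11, again to near the floor. PDZK1, a scaffold of apical transporters in the proximal tubule, fell by 2.54 from 10.43 and 10.68 in the control to 8.16, 8.05 and 7.78 with sg3 and 8.55, 7.88 and 7.68 with sg9. FXYD2, a regulatory subunit of the sodium pump, dropped by 2.53, and the sodium pump beta subunit ATP1B1 dropped by 2.07. The readthrough gene FXYD6-FXYD2 shares exons with FXYD2, and that it fell by 2.12 is not separate evidence. ANXA4, a calcium-dependent membrane-binding annexin, was abundant in the control at 13.70 and 13.61 and fell by 2.43. DHRS3, a retinal reductase, fell by 2.39, and more so with sg3 (-2.89) than with sg9 (-1.88, limma adjusted p = 0.0003 for the difference). MMP7, a secreted protease, was at 9.29 and 9.50 in the control and between 6.73 and 7.30 in the 6 guide libraries, and fell by 2.41.

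KRT81, a type II hair keratin, rose most, by 2.73. Its value was 7.30 and 7.15 in the control, 9.65, 9.78 and 9.89 with sg3 and 10.07, 10.08 and 10.29 with sg9. It has near-identical neighbours in the keratin cluster, so the split of its reads is uncertain. SEMA7A, a membrane-anchored semaphorin that binds integrins, rose by 2.28 from 8.99 and 9.09 to 11.32, 11.50 and 11.52 with sg3 and 11.02, 11.34 and 11.24 with sg9. PLK2, a polo-like kinase, rose by 1.98 and PEG10, an imprinted retrotransposon-derived gene, by 1.86. PEG10 was already at 12.07 and 12.05 in the control and reached 14.32 in 2 sg3 libraries. AOX1, an aldehyde oxidase, rose by 1.80 and G0S2, an inhibitor of the triglyceride lipase ATGL, by 1.63. HMGA2, a chromatin architectural protein, rose by 1.58 and BDNF, a neurotrophin, by 1.53. TMEM158 (1.71), FJX1 (1.67) and GPR1 (1.55) complete the rises outside the gene lists below. None of these overlapped the control range in any library. The 4 genes of highest level among rises of at least 0.5 were HSPA8, ITGA3, RPS2 and PLEC, and among falls FTH1, CTSD, PSAP and APP.

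**Figure D2:**
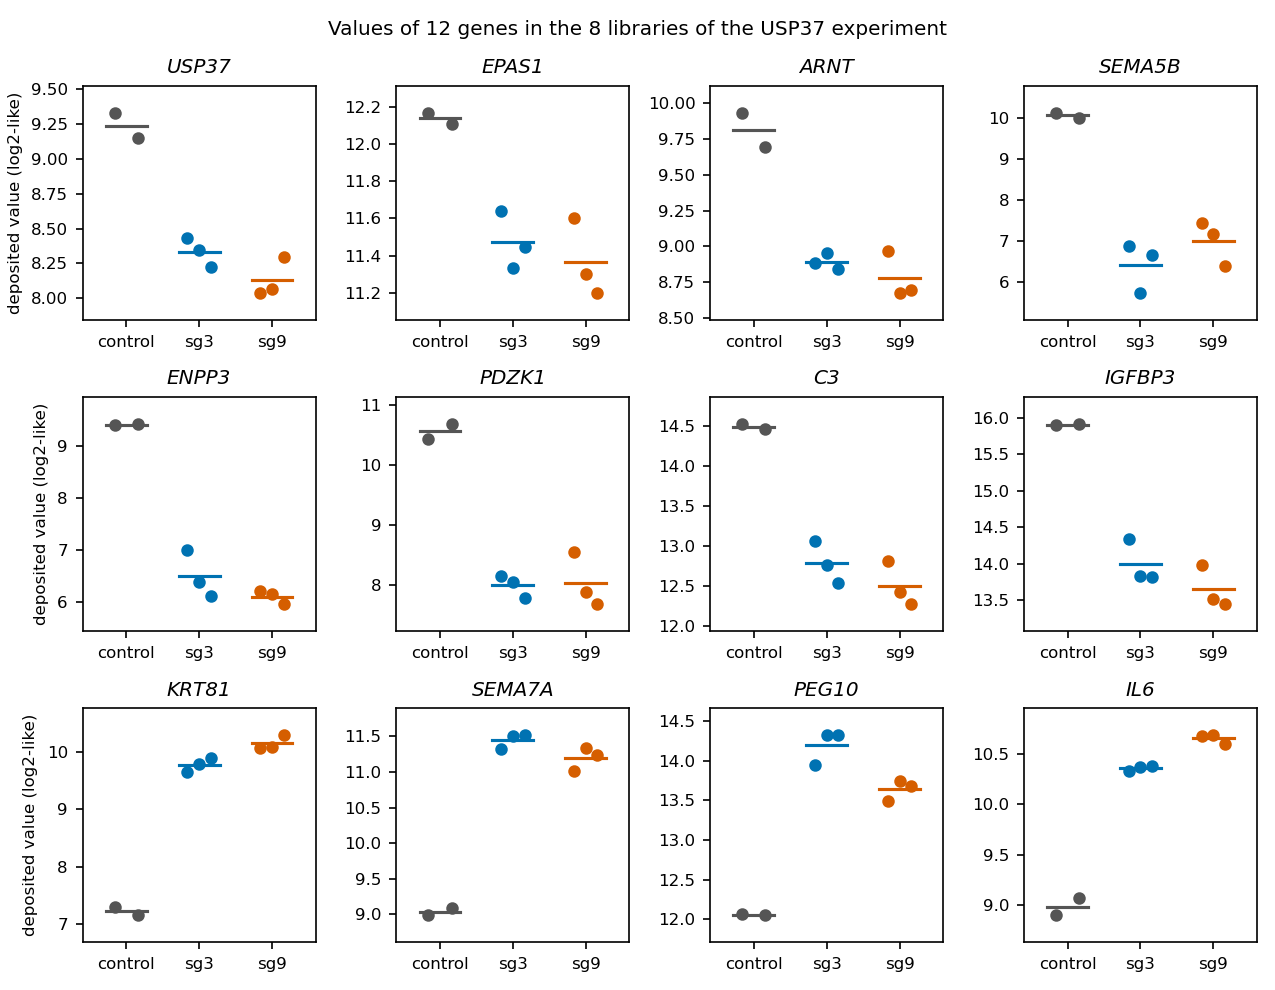
Deposited values (log2-like, vertical axis, a separate range for each gene) of 12 genes in the 8 libraries, with points for libraries in order of their number and bars for group means. In every panel all 6 guide libraries lie on 1 side of both control libraries, for USP37 between 8.04 and 8.43 against 9.15 and 9.33.

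Of the genes that make and control HIF, EPAS1 and ARNT were lower with both guides. EPAS1 was at 12.17 and 12.11 in the control, 11.64, 11.33 and 11.45 with sg3 and 11.60, 11.30 and 11.20 with sg9, and fell by 0.72 (SE 0.12, limma adjusted p = 6.6e-05). ARNT, the partner of both HIF alpha subunits, fell by 0.98 (SE 0.10, limma adjusted p = 3.58e-07), from 9.93 and 9.70 to values between 8.67 and 8.96. HIF1A values overlapped between groups (11.62 and 11.80 in the control, 11.42 to 11.67 with the guides), and its difference of -0.13 did not pass (limma adjusted p = 0.356). ARNT2 did not pass either (-0.07), and HIF3A held a single value. The oxygen-sensing hydroxylases went both ways: EGLN3, itself a HIF target, fell by 1.75 and EGLN1 by 0.35, while EGLN2 rose by 0.67. The HIF2a experiment's control had 9.28 for EGLN2, above the sg3 mean and close to the sg9 mean of 9.29. The gap of the USP37 control to that control was -0.81, larger in size than the rise. The rise of EGLN2 thus depends on the control used. The EGLN1 call was lost without control library 2. VHL was called lower (-0.26, limma adjusted p = 0.0383), with overlapping libraries, and this call was lost in 9 of 18 alternative settings, among them without sg3 library 1, sg9 library 2, sg9 library 3 or control library 3. CITED2, which competes with HIF for its coactivators, fell by 0.63.

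The list of known HIF2A and clear cell carcinoma targets has 33 genes, of which 27 passed the filter; NDUFA4L2, CA9, EPO, ANKRD37 and CXCR4 were among those that did not. In the mean of both guides 22 of 27 were called lower and 1 higher, against 21.9% and 22.4% of all tested genes, and 20 were lower with each guide. The list's median was -0.70, against 0.01 over all tested genes. The same shares over all tested genes are the ones to set beside the counts of the lists below. By library, the median of the list lay between -0.97 and -0.48 in the 6 guide libraries, relative to the control mean. Among metabolic and transport genes, PLIN2, which coats lipid droplets, was at 13.00 in both control libraries, 11.58, 11.09 and 11.13 with sg3 and 11.70, 11.18 and 11.38 with sg9, and fell by 1.66. The HIF2a experiment's control had 11.10, below the guide means of 11.27 and 11.42, so the direction of PLIN2 depends on the control used. CA12, a carbonic anhydrase, fell by 1.65 from 13.53 and 13.44, and the glucose transporter SLC2A1 fell by 0.79. The signalling genes NDRG1, a stress-responsive gene, and DDIT4, an inhibitor of mTORC1, were among the largest falls. NDRG1 was at 14.71 and 14.65 in the control, 12.45, 11.87 and 11.92 with sg3 and 12.81, 12.06 and 11.90 with sg9, and fell by 2.51. DDIT4 fell by 1.99 in the mean (-2.42 with sg3 and -1.55 with sg9). BHLHE40, a transcriptional repressor of the clock and hypoxia pathways, fell by 1.09, and the cell cycle gene CCND1 by 0.79. Of the secreted factors, IGFBP3, which binds insulin-like growth factors, fell by 2.08 from 15.90 and 15.91. PTHLH (-0.97), VEGFA (-0.70), ADM (-0.64), ANGPTL4 (-0.62), PDGFB (-0.61) and TGFA (-0.60) were also lower with both guides. STC2, a secreted glycoprotein, was called higher (0.43), a call lost without either control library and without sg3 library 1 or 2 or sg9 library 1 or 2. The collagen-modifying enzymes PLOD2 (-0.88) and LOX (-0.47) were lower with both guides. PFKFB4 (0.08), MET (0.12), P4HA2 (-0.02) and BHLHE41 (-0.23) did not pass the test.

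**Figure D3:**
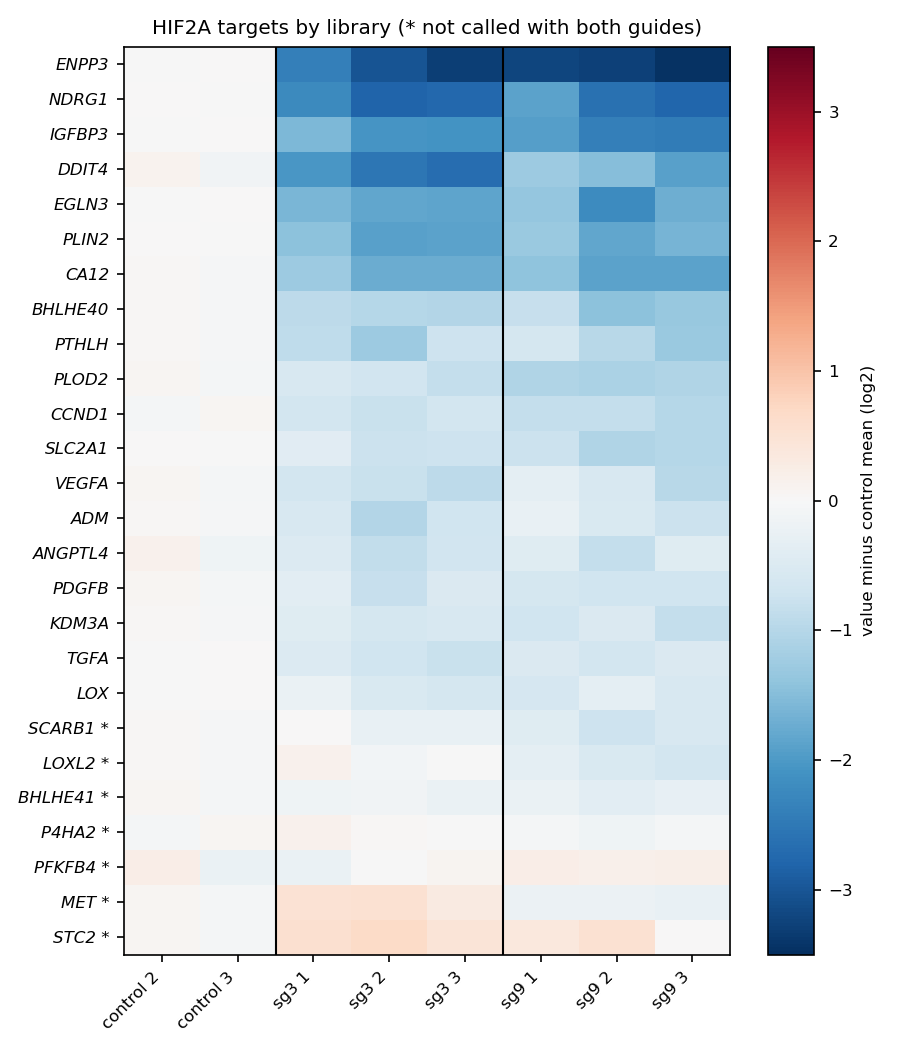
Value minus the control mean (log2, colour scale) for tested HIF2A targets (rows) in the 8 libraries (columns), ordered by the mean difference, with * for the 7 genes not called with both guides. ENPP3, NDRG1 and IGFBP3 are darkest blue, and the genes without a mark are lower than the control mean in all 6 guide libraries.

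The promoters of 3 HIF2A targets that fell with both guides are printed, and they hold 4 matches each to the core of the hypoxia response element. Not every target on the list was considered for printing, so other targets may hold as many matches or more. The letters searched were ACGTG and GCGTG on either strand, in the 250 bases before each RefSeq start (GRCh38.p14), and capitals mark the matches, with the palindrome CACGTG holding overlapping matches on both strands. PLIN2 lies at chr9:19127493-19127742 on the minus strand, BHLHE40 at chr3:4979187-4979436 on the plus strand and LOX at chr5:122078260-122078509 on the minus strand, each printed in the direction of its gene.
PLIN2: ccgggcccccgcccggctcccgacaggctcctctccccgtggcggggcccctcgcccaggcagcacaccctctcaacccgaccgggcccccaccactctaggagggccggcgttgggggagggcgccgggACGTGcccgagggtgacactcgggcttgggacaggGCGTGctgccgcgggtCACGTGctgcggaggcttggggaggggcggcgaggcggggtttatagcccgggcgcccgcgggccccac
BHLHE40: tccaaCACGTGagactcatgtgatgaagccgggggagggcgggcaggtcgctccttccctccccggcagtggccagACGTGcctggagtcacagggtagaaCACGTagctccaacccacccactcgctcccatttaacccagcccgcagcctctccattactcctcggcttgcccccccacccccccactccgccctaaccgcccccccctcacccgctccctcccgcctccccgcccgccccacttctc
LOX: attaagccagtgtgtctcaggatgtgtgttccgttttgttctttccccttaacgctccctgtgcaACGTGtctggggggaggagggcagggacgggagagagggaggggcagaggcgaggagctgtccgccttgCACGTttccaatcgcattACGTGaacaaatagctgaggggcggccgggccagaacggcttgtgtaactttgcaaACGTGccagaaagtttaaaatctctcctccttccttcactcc
Of the tested targets with a RefSeq promoter, 15 of 20 (75%) held at least 1 match, against 58% of the 10132 promoters of tested genes. Among all genes called with both guides the share was 54.1% of those lower and 59% of those higher. A match is a run of letters and no measure of binding.

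Complement and acute phase genes fell as a group; this list was assembled after values were seen. Of 37 members 21 passed the filter, and 19 of these were called lower and 0 higher in the limma test, 18 with both guides. The median was -1.40, and by library it lay between -1.56 and -0.97 in the 6 guide libraries. C3, the central complement component, was at 14.53 and 14.46 in the control, 13.06, 12.76 and 12.53 with sg3 and 12.81, 12.42 and 12.27 with sg9, and fell by 1.85. CFI, the protease that inactivates C3b, fell too (-2.07). CFB (-1.13), C1S (-0.80), C1R (-0.70) and C5 (-0.59) were lower as well, as was the membrane regulator CD46 (-0.97), while CFD did not pass (-0.11). Of the acute phase genes, LCN2, an iron-siderophore carrier, was at 9.59 and 9.56 in the control and 6.77 to 7.53 with the guides, and fell by 2.47. The HIF2a experiment's control had 7.60 for LCN2, nearer to the guides than to the USP37 control. CP, the ferroxidase ceruloplasmin, fell by 2.09 from 13.01 and 12.80. SAA2 fell by 2.09 and SAA1 by 1.70, more with sg3 than with sg9 for both (limma adjusted p = 0.00039 and 0.0048 for the differences). They are near-identical, so reads may be split between them. The interleukin 1 receptors IL1R1 (-2.05) and IL1R2 (-1.85) were lower with both guides. The HIF2a experiment's control stood below the USP37 control for this list by a median of 0.39, a smaller gap than that to the guides.

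The NF-kB, cytokine and chemokine list was mixed, with 13 of 29 tested members lower and 7 higher (4 higher without control library 2). BIRC3, an inhibitor of apoptosis and NF-kB target, fell by 1.87 from 12.16 and 12.17 to values between 10.03 and 10.48. SOD2 and VCAM1 each fell by 0.86, RELB by 0.49 and the chemokine CCL20 by 1.06. In the opposite direction, the cytokine IL6 rose by 1.52 and the neutrophil chemokine CXCL1 by 1.17 with both guides. The 7 members outside the subunits, cytokines and chemokines were all lower with both guides; 4 of them, LCN2, SAA1, SAA2 and C3, are also counted in the complement and acute phase list.

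Renal tubule genes were more often lower than higher. Of 38 members 28 passed the filter, 14 were called lower and 4 higher (1 higher without control library 3), and the median was -0.24. Of the transport genes 6 of 10 were lower (median -0.36), of the apical and scaffold genes 3 of 7 (median 0.03) and of the other members outside the transcription factors 3 of 5 (median -0.97). Besides PDZK1, FXYD2 and ATP1B1, the kidney cadherin CDH16 fell by 1.76, the basolateral bicarbonate cotransporter SLC4A4 by 1.66, GGT1, the brush-border gamma-glutamyltransferase, by 1.38, SPP1 by 1.35 and SLC17A3 by 1.00. SLC4A4 was at 10.97 and 10.79 in the control, 9.79, 9.48 and 9.32 with sg3 and 9.04, 8.85 and 8.83 with sg9. The sg9 libraries lay below all sg3 libraries, and the guides differed (limma adjusted p = 0.0013). The lineage factor PAX8 rose by 0.36 with both guides.

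Of 28 tested genes of fatty acid synthesis and storage, 12 were lower and 5 higher; PLIN2 is counted here and in the HIF2A list. Without control library 2 these counts were 7 and 3, and without control library 3 the count of higher genes was 3. HILPDA, which inhibits lipolysis at lipid droplets and is a known hypoxia gene, fell by 1.29, from 10.15 and 10.01 to values between 8.42 and 9.21. SCD, the stearoyl-CoA desaturase, fell by 0.86 and its regulator SREBF1 by 0.85, the desaturases FADS1 and FADS2 by 0.49 and 0.41, and PPARGC1A by 0.68. DGAT2 (0.48) and GPAM (0.68), enzymes of triglyceride synthesis, rose. In cholesterol synthesis 8 of 29 genes were lower and 5 higher, against 5 and 2 without control library 3, and with 3 higher without control library 2 or sg9 library 3. With all libraries the shares for cholesterol synthesis were 27.6% lower and 17.2% higher, against 21.9% and 22.4% of all tested genes. HMGCS1 fell by 0.49, INSIG2 by 0.61 and SREBF2 by 0.43, while SQLE (0.18) and IDI1 (0.16) did not pass.

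Iron genes moved in both directions. The transferrin receptor TFRC rose by 1.10, from 13.13 and 13.02 in the control to 14.23, 14.32 and 14.21 with sg3 and 13.90, 14.14 and 14.24 with sg9. The ferritin chains FTH1 and FTL fell by 0.73 and 0.66. FTH1 stood at 16.04 and 16.15 in the control, at 15.16 in all 3 sg3 libraries and at 15.74, 15.42 and 15.55 with sg9. These are the receptor that takes up iron and the protein that stores it. NRF2 targets showed no common direction: AKR1B10 fell by 1.89 and AKR1C3 by 1.66, while NQO1 (0.19), GCLM (0.07) and TXNRD1 (-0.05) did not pass. AKR1C3 has near-identical paralogs. Lysosome and autophagy genes were called lower in 8 of 22 and higher in 1 (5 lower without either control library, 0 higher without control library 2), with CTSD at -0.75 and GABARAPL1 at -0.97.

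Glycolysis genes were split, with 7 of 21 lower, 6 higher (2 without control library 2 and 3 without control library 3) and a median of 0.00. The shares with all libraries were 33.3% lower and 28.6% higher, against 21.9% and 22.4% of all tested genes. ENO2, a neuronal-type enolase, fell by 1.00, PFKL by 0.85, PFKP by 0.59 and PFKFB3 by 0.48 with both guides. PGAM1 rose by 0.55 and the lactate transporter SLC16A1 by 0.48. ENO1 (0.00), PGK1 (0.13) and ALDOA (-0.16) did not pass. In amino acid metabolism the serine pathway genes PSAT1 (0.80) and MTHFD2 (0.67) and asparagine synthetase ASNS (0.74) rose, while cytosolic SHMT1 fell by 0.63. The counts on that list were 7 higher and 7 lower of 21 (3 lower without control library 3). Of the integrated stress response, TRIB3 fell by 1.03 and SESN2 by 0.62, and ATF4 (-0.22) and DDIT3 (0.16) did not pass.

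Guidance and adhesion genes held the largest fall and the second largest rise of all genes called with both guides. Of 15 tested semaphorins, 8 were called lower and 3 higher. SEMA3C, a secreted semaphorin, rose by 1.19 from 11.43 and 11.23 to values between 12.18 and 12.91, and SEMA3A rose by 0.71. SEMA3F fell by 1.07, SEMA6D by 1.06, SEMA6A by 0.97 and SEMA4D by 0.79. Of their receptors, PLXNA2 rose by 0.62 and PLXNB1 and PLXND1 fell by 0.74 and 0.71. Among matrix genes, TNC, a matricellular glycoprotein, rose by 1.33. It was at 10.99 and 10.93 in the control, 12.66, 12.80 and 12.73 with sg3 and 11.81, 11.97 and 11.79 with sg9, so the rise was larger with sg3 (limma adjusted p = 6.7e-05). MMP1, an interstitial collagenase, rose by 1.07 and was higher with sg9 than with sg3 (limma adjusted p = 6.1e-05). PLAU and its receptor PLAUR rose by 0.86 and 0.97, and the integrins ITGA3 and ITGA5 by 0.72 and 0.64. MMP2 fell by 0.86 and TIMP2 by 0.62. Of 9 tested collagens 1 was called, COL8A1, at -0.77.

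Of the TGF-beta family ligands, INHBA rose by 1.18 and INHBB by 0.61. The HIF2a experiment's control had 11.06 for INHBA, above the guide means of 10.63 and 10.17, and for the ligands the median gap of the USP37 control to it was -0.69, against a median of 0.48 for the guides. In the same pathway the receptor TGFBR1 fell by 0.64 and the mediator SMAD3 by 0.76. The mesenchymal gene VIM (0.45) and the repressor SNAI2 (0.84) rose, and SNAI1 fell by 0.79. Simple-epithelial keratins rose with them: KRT8 by 0.70, KRT18 by 0.66 and KRT19 by 0.53. KRT8 was at 12.71 and 12.82 in the control and between 13.27 and 13.58 in the guide libraries. Of 18 keratins on the list 8 passed the filter, 7 were called higher and 0 lower, and 6 were higher with both guides. The median was 0.67. EPCAM fell by 0.65, with overlapping libraries, and that call was lost without control library 3.

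Secreted YAP/TAZ target genes were among the rises. YAP and TAZ are coactivators that act through TEAD factors on genes of growth and adhesion. CTGF was at 7.46 and 7.78 in the control, 9.78, 9.76 and 9.93 with sg3 and 8.62, 9.32 and 9.14 with sg9, a rise of 1.80. CYR61, its family member, rose by 1.70 from 10.68 and 10.84. For both genes the rise was larger with sg3 (limma adjusted p = 0.00062 and 0.004 for the differences), and THBS1 rose by 1.63 with sg3 and 0.54 with sg9. ANKRD1 (1.01), AXL (1.14) and AMOTL2 (0.57) also rose with both guides, and EDN1, the vasoconstrictor endothelin, fell by 1.76. Over the 19 tested members 11 were called higher (7 without control library 3) and 2 lower, with a median of 0.32. Against the HIF2a experiment's control the USP37 control was lower on this list by a median of 0.27, which comes close to the size of the list's difference. The CTGF promoter is printed because it holds 3 matches to GGAATG, a sequence bound by TEAD factors, searched on both strands and marked in capitals (RefSeq, GRCh38.p14, chr6:131951373-131951622, minus strand).
CTGF: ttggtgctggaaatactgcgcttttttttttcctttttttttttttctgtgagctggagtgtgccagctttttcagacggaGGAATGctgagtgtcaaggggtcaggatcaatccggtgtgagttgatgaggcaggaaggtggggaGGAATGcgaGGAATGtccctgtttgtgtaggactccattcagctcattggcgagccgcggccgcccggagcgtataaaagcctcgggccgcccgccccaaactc
The sequence GGAATG was found in 5 of 14 promoters of the list (35.7%), against 9.34% of the 10132 promoters of tested genes.

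Immediate early genes and the feedback genes of ERK signalling were called higher in 11 of 21 and lower in 2, with a median of 0.35. MYC rose by 0.90 (SE 0.09, limma adjusted p = 3.24e-07), from 9.77 and 9.65 in the control to 10.57, 10.79 and 10.83 with sg3 and 10.57, 10.44 and 10.45 with sg9. The AP-1 subunits FOSL1 and JUN rose by 1.23 and 0.82, and JUNB and JUND fell by 0.59 and 0.75. Phosphatases that switch off ERK, DUSP5 (1.15) and DUSP6 (1.03), and the Sprouty inhibitors SPRY2 (0.62) and SPRY4 (0.61) rose with both guides. PHLDA1 was at 10.55 and 10.65 in the control and between 11.65 and 11.88 in all 6 guide libraries.

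The interferon list was split by role. Effectors were mostly higher, with 8 of 14 called higher and 1 lower, and the signalling gene STAT2 (-0.54) and the sensor IFIH1 (-0.59) were lower. IFI6, an interferon-induced mitochondrial protein, rose by 2.19, from 8.28 and 8.00 to 9.75, 9.87 and 10.04 with sg3 and 10.38, 10.98 and 10.94 with sg9. The other experiment's control had 11.37 ± 0.30 (SD, n = 3), above both guide means, so the direction of IFI6 depends on which scrambled control is set beside the guides. ISG15 rose by 1.08 and RSAD2 by 1.03. The other control had 6.95 for RSAD2, above the guide means of 6.71 and 6.59, and 9.40 for ISG15, between the guide means of 9.35 and 9.80. For the effectors the median gap of the USP37 control to the other control was -0.56, against a median of 0.38 for the guides. Antigen presentation genes were few: TAP2 rose by 0.89, PDCD1LG2, the PD-1 ligand PD-L2, rose by 1.08 and TAPBP fell by 0.74, while HLA-B, HLA-C and B2M did not pass.

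Genes of ribosome biogenesis were higher with both guides; this list too was assembled after values were seen. Of 34 tested members 31 were called higher and 1 lower, and 26 were higher with both guides. The median was 0.59, and by library it lay between 0.46 and 0.74 in the guide libraries. RRS1, a large subunit assembly factor, was at 8.89 and 8.69 in the control, 10.10, 10.30 and 10.54 with sg3 and 10.04, 10.25 and 10.29 with sg9, a rise of 1.46. PNO1 (1.38) and BYSL (1.12) act in small subunit assembly, and BOP1 (1.25), NIP7 (1.08) and NOP2 (1.03) in large subunit assembly. NHP2 (0.99), of the H/ACA snoRNP, and POLR1A (0.92), the largest RNA polymerase I subunit, rose too. NCL, nucleolin, was called lower in the mean (-0.43) and with sg9 (-0.65), and did not pass with sg3 (-0.21). The guides differed for NCL (limma adjusted p = 0.00126). The USP37 control stood below the HIF2a experiment's control for this list by a median of 0.53, nearly as much as it stood below the guides.

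Heat shock genes, another list assembled after values were seen, were called higher in 12 of 15 and lower in 0, with 9 higher with both guides and a median of 0.44. HSPA1B rose by 1.67, from 8.96 and 8.66 to values between 10.28 and 10.65. It is near-identical to HSPA1A (0.80), so their reads may be split. HSPA8, the constitutive HSP70, rose by 0.82 from 14.61 and 14.67, and its partner HSPH1 by 0.85. In the endoplasmic reticulum HSPA5 rose by 0.42 and HSP90B1 fell by 0.84. HSP90B1 was at 14.57 in both control libraries and between 13.38 and 14.09 with the guides.

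**Figure D4:**
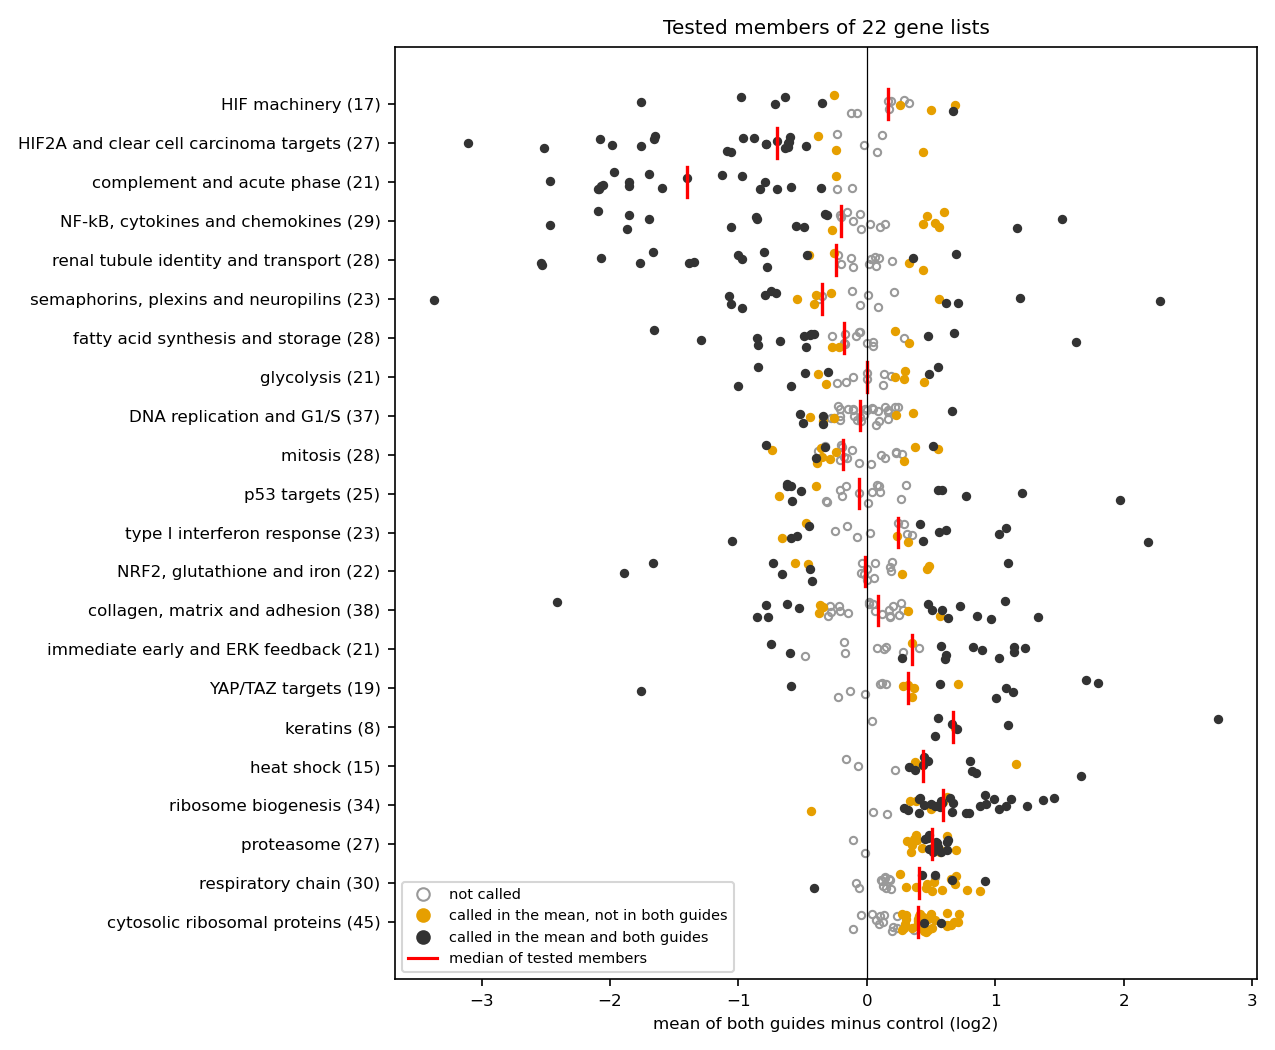
Mean of both guides minus control (log2, horizontal axis) for the tested members of 22 gene lists (rows, number of members in parentheses), with black points for genes called in the mean and both guides, orange points for genes called in the mean and not in both guides, open points for genes not called and red bars for list medians. Complement and acute phase genes have the lowest median (-1.40) and keratins the highest (0.67).

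Several lists were called higher in the mean while the difference came from 1 guide. Of 45 cytosolic ribosomal protein genes, 32 were called higher in the mean and 0 lower in the limma test. With sg9 40 were higher, at a median of 0.66, and with sg3 2 were, at a median of 0.04. RPS25 was at 11.85 and 11.97 in the control, 11.79, 12.01 and 12.06 with sg3 and 13.01, 13.37 and 13.50 with sg9. The sg3 libraries overlapped the control and the sg9 libraries were all higher, a difference between guides of 1.34 (limma adjusted p = 2.8e-06). Respiratory chain genes gave 17 of 30 higher in the mean, 24 with sg9 and 4 with sg3, at medians of 0.68 and 0.06. NDUFA1 of complex I was at 8.36 and 8.44 in the control, 7.91, 8.41 and 8.25 with sg3 and 9.79, 10.31 and 10.42 with sg9. Its call in the mean was lost without control library 2 or without control library 3. The counts in the mean also depend on the control: without control library 2, 11 ribosomal protein and 8 respiratory chain genes were higher, and without control library 3, 22 and 12.

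Proteasome genes lay between these lists and those shared by the guides. Of 27 members 25 were called higher in the mean and 0 lower, 13 with sg3 and 24 with sg9, and 12 with both. The median was 0.32 with sg3 and 0.63 with sg9. PSMD11, a subunit of the regulatory cap, was at 10.80 and 10.86 in the control, 11.47, 11.63 and 11.71 with sg3 and 11.32, 11.25 and 11.41 with sg9, and rose by 0.64. PSMD2 rose by 0.62 and PSMC1 by 0.62, both with each guide. PSMA7 of the core was called in the mean (0.69) and with sg9 (1.02), and did not pass with sg3 (0.37). Genes of the ribosome, the respiratory chain and the proteasome make short transcripts, and transcript length moved with the sg9 difference. Over 5 bins of the 12261 genes with a length, from shortest to longest, the median sg9 difference was 0.12, 0.15, 0.03, -0.08 and -0.19, and the median sg3 difference ran between -0.03 and 0.03. With length and GC content taken out, 28 ribosomal protein, 17 respiratory chain and 25 proteasome genes were higher in the mean, at medians of 0.33, 0.35 and 0.47.

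**Figure D5:**
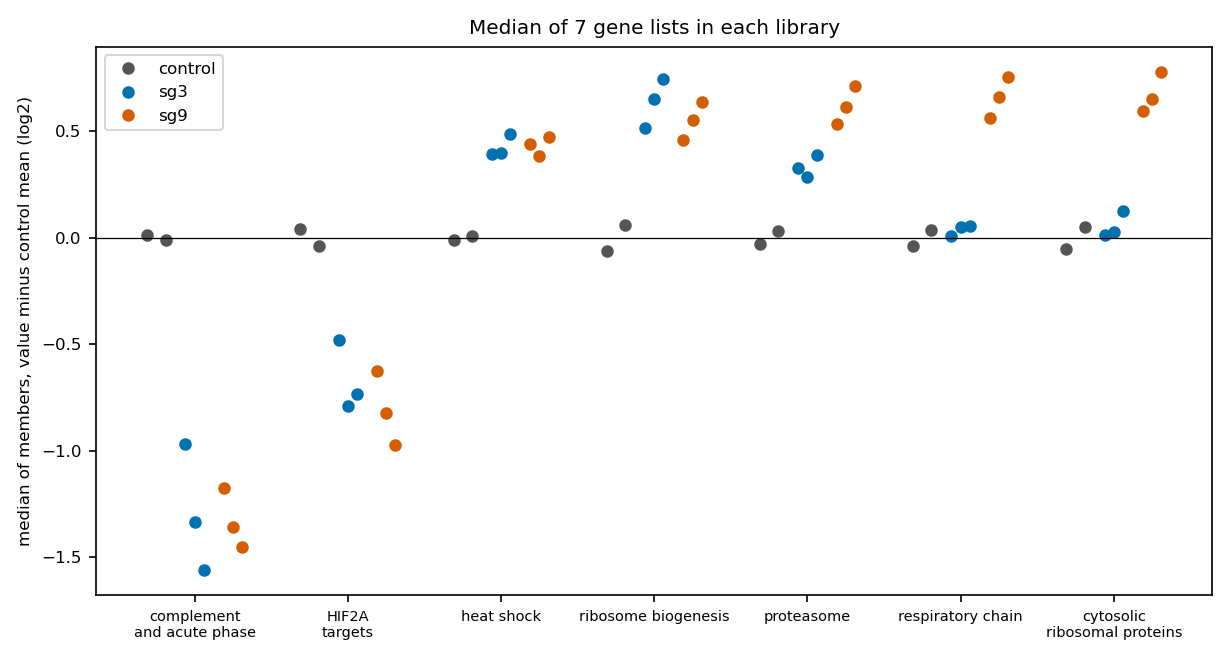
Median over list members of value minus control mean (log2, vertical axis) in each library, for 7 gene lists (horizontal axis), with the libraries of a group in order of their number. The ribosomal protein and respiratory chain medians stay near 0 with sg3 and lie between 0.56 and 0.78 with sg9, while the first 4 lists move with both guides.

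Of 37 genes of DNA replication and the G1/S transition, 7 were called lower (18.9%) and 3 higher (8.11%), with a median of -0.05. Over all tested genes these shares were 21.9% and 22.4%. Without control library 3 the lower count was 3, and the higher count was 1 without control library 2, sg3 library 2, sg9 library 2 or sg9 library 3. The fork machinery had 0 of 13 members called in the limma test. The helicase subunits MCM3 and MCM6 fell by 0.52 and 0.49 and cyclin E1 (CCNE1) rose by 0.67. In mitosis 9 of 28 were lower (5 without control library 3) and 4 higher (2 without control library 2). With sg9 15 of the 28 were lower, at a median of -0.29, and with sg3 3 were, at a median of -0.03. TOP2A, topoisomerase II alpha, fell by 0.79, from 13.48 and 13.45 to 12.87, 12.93 and 12.79 with sg3 and 12.48, 12.47 and 12.53 with sg9, and the guides differed (limma adjusted p = 0.0024). CDC20, the activator of the anaphase-promoting complex, rose by 0.52. Of the p53 targets 7 of 25 were lower and 5 higher. GADD45A rose by 1.21 and TIGAR by 0.78, while CDKN1A (0.10), MDM2 (0.08) and BAX (0.27) did not pass.

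Proteins reported as USP37 substrates are encoded by CCNA2, CDT1, CHEK1, BLM, MYC and SNAI1. Of these transcripts MYC was higher and SNAI1 lower with both guides, as given above. SNAI1 was at 8.38 and 8.49 in the control and between 7.49 and 7.81 with the guides. CCNA2 (0.11), CDT1 (0.04), CHEK1 (0.11) and BLM (-0.21) did not pass in the mean. BLM, a DNA helicase, was lower with sg9 (-0.55, limma adjusted p = 0.00099) and not called with sg3 (0.12), and the difference between the guides passed (limma adjusted p = 0.00018). Of 45 tested genes of the USP family, USP37 among them, 17 were lower and 6 higher in the mean, 9 lower with both guides and 0 higher with both. With sg9 22 were lower, at a median of -0.33, and with sg3 11, at a median of -0.05. USP37 had the largest fall, followed by USP43 (-0.81), USP48 (-0.73) and USP13 (-0.66). The count in the family without control library 2 was 8 lower and 6 higher, and without control library 3 it was 13 and 2.

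Markers of 786-O cells were present in every library. PAX8 was at 12.18 to 12.71, VIM at 15.96 to 16.64 and CDH6 at 13.03 to 13.53. Of the 7 markers, 4 were called lower (among them CA12, NNMT and PAX2, the last of these lost without control library 3), and 2 were higher (PAX8 and VIM; 1 of them without control library 3). None of 6 leukocyte markers passed the filter, with medians over the 8 libraries of 5.14 to 5.71. PTPRC and CD3E reached 6.68 and 6.78 in the library where each was highest. Of 6 endothelial and fibroblast markers COL1A1 alone passed, with no call (0.01). For 293T cells, in which the virus was packaged, LIN28B and NEFM stayed under the filter, and NEFL and ZIC2 were present in the control as well. NEFL was lower with the guides (-0.68), and the call of ZIC2 (-0.30) was lost in 11 of 18 alternative settings.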

How the data were processed

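Per the labels, polyadenylated RNA libraries (TruSeq RNA v2) were read as paired ends on a HiSeq2500. The authors deposited 1 table of batch-corrected, variance-stabilised log2 values. Tools named in the submitters' processing notes are DESeq2, Salmon, STAR 2.5.2b and cutadapt, with hg19, and no roles or order; the batch variable is not given in the sources used here. In the table the means of libraries numbered 1, 2 and 3 are equal for every gene to within 6.4e-14, so a replicate term had been removed by the authors, although the control has no library 1. Values ran from 4.85 to 20.1, and 8023 genes were constant. Counts and depth are not recoverable, and 0 columns of per-sample values were left unused.

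Genes with a mean of at least 6.143, which is the 1st percentile of gene means plus 1, were tested with limma 3.58.1 in R 4.3.3: 6 group means over 17 libraries, empirical Bayes with a trend of variance on level, 11 residual degrees of freedom and Benjamini-Hochberg adjustment over all tested genes. These degrees ignore the removed replicate term, so p-values tend to be too small. The median SE was 0.12. Named genes are key genes of the HIF pathway and of USP37, the 15 largest rises and falls called with both guides, up to 5 called members per list, 4 rises and falls of highest level, 3 genes called oppositely by the guides, and neighbours of USP37; other list members named beside them were chosen after their values were seen. The members and lists were chosen with earlier results of these data known. Promoters are RefSeq's, matched by symbol, and lengths are from GENCODE. Some members of the lists are counted and not reported here by name.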

Additional observations from a re-analysis of the deposited data

Results flagged for a closer look

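In 33 genes the 2 USP37 guides were called in opposite directions against the shared control, and the difference between guides was itself tested with limma. The largest gaps were in NDUFA13, ZNF428 and RPA3. NDUFA13, a complex I subunit, was at 10.25 and 10.49 in the control, 9.89, 9.91 and 9.93 with sg3 and 11.05, 11.10 and 11.08 with sg9. The control lay between the guides, and sg9 minus sg3 was 1.17 (limma adjusted p = 1.8e-05). ZNF428 was at 8.02 and 8.04 in the control, 7.38, 7.54 and 7.53 with sg3 and 8.73, 8.42 and 8.63 with sg9, a difference of 1.11 (limma adjusted p = 8.2e-05). RPA3, a subunit of the single-strand DNA-binding protein RPA, differed by 1.06 (limma adjusted p = 8.2e-05), with 9.60 and 9.89 in the control, 9.21, 9.14 and 9.13 with sg3 and 9.98, 10.16 and 10.52 with sg9. The means of both guides hide these differences: they were 0.12, 0.01 and -0.06 and did not pass.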

How the results depend on the processing

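Of 3212 values of 179 named genes under 18 alternative settings, 3080 stayed on the same side of the threshold and 0 calls reversed. The other 132 were no longer called, 84 of them against a minimum difference of 0.5 and some with 1 control library left out. Differences of genes that were not called could change sign, as for HIF1A, which ran from -0.21 to 0.02 over the settings. Of 168 called named genes, 84 were called in all 18. Testing against a minimum difference of 0.5 with limma's treat, instead of any difference, left 484 calls in the mean (181 higher, 303 lower), 379 with sg3, 707 with sg9, and 254 called with both guides (70 higher, 184 lower). The share of higher calls was then 37.4%, against 50.6%. Leaving out 1 library gave 3683 to 5580 calls in the mean and 2025 to 3057 with both guides. The lowest of each came without control library 2, where 1911 of the 3095 genes were still called with both guides. Where 1 control library is left, its spread is taken from the other groups.

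The replicate numbers do not pair the samples by the labels. Deviations of same-numbered libraries correlated at -0.195 to -0.0672. Because a replicate term had been removed from the values, such correlations tend to be negative and cannot show whether samples were paired. With the replicate number as a block, 5069 genes were called in the mean and 2827 with both guides. With libraries numbered 2 and 3 alone these counts were 4884 and 2475. Differences were then slightly larger: over the genes called with both guides, the median ratio to the difference reported above was 1.036 with the block. With libraries numbered 2 and 3 alone it was 1.059. Taking out length and GC content was chosen after seeing the data. The unadjusted p was under 0.05 for 6417 genes (51.4%) in the mean. The depth is unknown and sets no limit that can be stated here.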
